A study of Mus musculus with 18 samples.

Results

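Tubulin isotypes are the near-identical products of separate genes that pair, as alpha and beta subunits, into the dimers from which microtubules are built. The 10 members described here, 5 alpha genes (Tuba1a, Tuba1b, Tuba1c, Tuba4a, Tuba8) and 5 beta genes (Tubb2a, Tubb2b, Tubb4b, Tubb5, Tubb6), were taken by symbol from a table of 54752 genes, and all 10 were among the 21840 genes that passed the filter on low counts. Liver RNA came from male C57BL/6 mice that entered the experiment at 6 weeks of age, 15 per group, with 6 per group sequenced in week 22. Control mice were injected with olive oil and gavaged with water, the CCl4 group was injected with carbon tetrachloride, a solvent that injures hepatocytes, on the same schedule (2 injections per week) and gavaged with water, and the CCl4_PTH group had CCl4 injections with daily gavage of PTH in place of water. PTH was read as Pien Tze Huang, the traditional Chinese preparation in the study's title, which the labels also write as PZH. The labels call the CCl4 groups a liver cancer model. They do not say whether the sampled tissue held tumour.

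Microtubules position organelles, carry vesicles and secreted proteins to the cell surface and form the mitotic spindle, and liver parenchyma relies on them for the export of plasma proteins and bile components. Alpha and beta isotypes copolymerise, and they differ mainly in the acidic tail at the end of the protein, where most tubulin modifications are made. Most alpha tails end in a tyrosine that carboxypeptidases remove and tubulin tyrosine ligase restores. Cells also sense an excess of free dimers: TTC5 binds the first residues of a tubulin emerging from the ribosome and recruits factors that degrade the mRNA. The questions the design poses for these genes are which isotypes differ between CCl4 and control livers, and which differ between CCl4 livers with and without PTH.

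The last 60 coding bases of 6 members (from the GENCODE M21 transcripts on GRCm38) show how the tails differ. They are written 5′ to 3′ up to the stop codon, with the last codon in capitals.
Tuba4a: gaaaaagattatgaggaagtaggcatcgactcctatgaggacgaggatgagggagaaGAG
Tuba8: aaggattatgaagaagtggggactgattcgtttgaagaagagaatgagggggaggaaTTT
Tubb2a: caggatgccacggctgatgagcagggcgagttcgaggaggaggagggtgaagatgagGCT
Tubb2b: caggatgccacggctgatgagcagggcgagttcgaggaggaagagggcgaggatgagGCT
Tubb4b: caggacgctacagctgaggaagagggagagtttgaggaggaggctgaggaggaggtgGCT
Tubb5: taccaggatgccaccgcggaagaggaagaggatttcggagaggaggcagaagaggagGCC
Of the alpha genes shown, Tuba4a ends in a glutamate codon (GAG) and Tuba8 in a phenylalanine codon (TTT), so neither encodes a terminal tyrosine. The beta genes shown end in an alanine codon (GCT or GCC).

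At the other end of the coding sequence, codons 2 to 4, which encode the residues read in mRNA autoregulation, differ between the families. They are given in capitals, after the start codon in lower case, for Tuba4a, the alpha gene with the highest level in control livers, and Tubb2a, the beta gene with the highest level per kilobase in CCl4 livers.
Tuba4a: atgCGCGAGTGC
Tubb2a: atgCGCGAGATC

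Several members are hard to tell apart with short reads. Over aligned coding bases Tuba1b and Tuba1c were 98.4% identical, Tuba1a and Tuba1b 98.3%, and Tubb2a and Tubb2b 96.5%, while the other pairs within a family went down to 80.3% and alpha against beta pairs ranged from 57.5% to 61.6%. Of all 150-base windows of the transcript, the length of one read, 54.7% in Tuba1a, 57.9% in Tuba1b and 46.7% in Tuba1c also occurred in a transcript of another gene, as did 27.9% in Tubb2a, 20.1% in Tubb2b and 16.8% in Tubb4b. No such window was found for Tuba4a, Tuba8, Tubb5 or Tubb6. How the counting treated reads that match several genes was not stated in any source used here, so values of the first 6 genes may hold reads of their copies, and those of Tuba1a, Tuba1b and Tuba1c are best read together, as are those of Tubb2a and Tubb2b.

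Total counts ran from 67.2 M to 118.9 M per library, of which loci of ribosomal RNA took 30.6% to 55.8%. The 10 isotypes together held 8289 to 45882 counts per library. Levels are given as CPM (library-scaled counts) after TMM normalization, which sets libraries to a common scale by the bulk of their genes. Every hepatocyte marker was detected in each group, with a summed level of 21262 to 63484 CPM, whereas 8 neuron and Schwann cell markers summed to under 3 CPM (highest 2.90). P-values measure the spread between these mice. In tissue RNA, fewer cells of a type and less RNA per cell cannot be told apart.

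Tubulin mRNA was higher in CCl4 than in control livers for 9 of the 10 isotypes and lower for Tuba4a, whose direction turned when counts were scaled to library totals alone. The neuron-rich beta isotypes Tubb2a and Tubb2b and the divergent beta isotype Tubb6 differed most, by log2 differences of 2.66 (6.30-fold), 2.70 (6.48-fold) and 2.07, and Tuba1a, Tuba1b, Tuba1c, Tuba8 and Tubb5 were higher by 2.12-fold to 2.64-fold. Among all genes tested 47.4% were called in this comparison, 26.3% higher and 21.2% lower (edgeR quasi-likelihood test, Benjamini-Hochberg adjusted p under 0.05). The groups did not overlap for 7 of the 10 isotypes, against 26.1% of all genes (14.8% wholly higher and 11.3% wholly lower). The median log2 difference was 1.25 for the isotypes (1.12 for the alpha and 2.07 for the beta genes) and 0.05 for all genes tested.

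**Figure D1:**
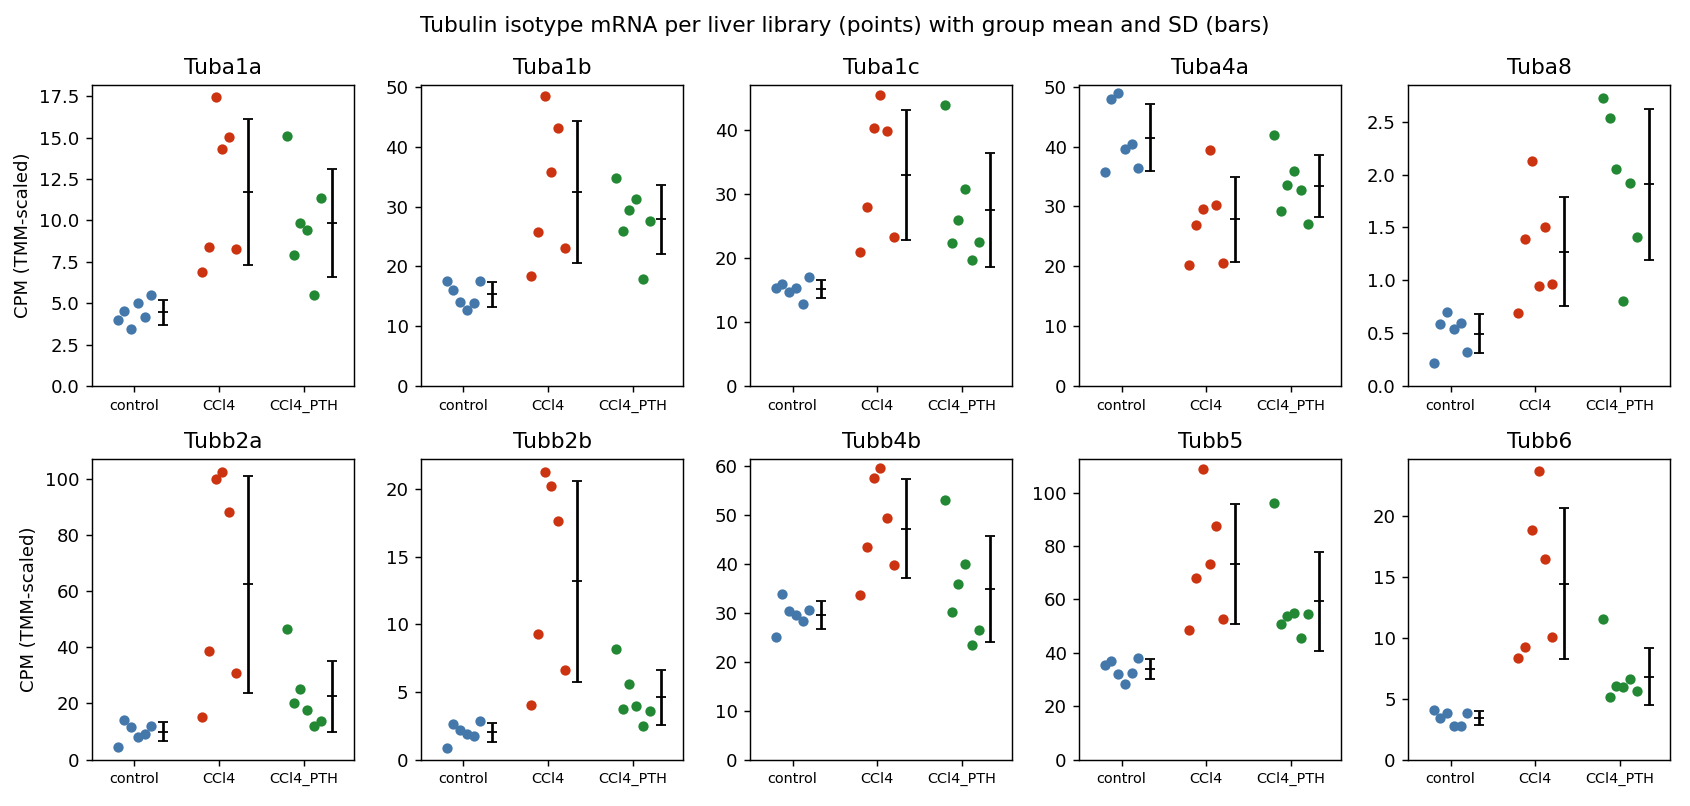
Level of each tubulin isotype in every liver library, in TMM-scaled CPM (y axis, starting at 0), by group (x axis). Points are libraries and bars the group mean and SD of 6 libraries. Tubb2a ran from 4.48 to 14.3 CPM in control and from 15.3 to 102 CPM in CCl4 libraries, and Tuba4a from 35.7 to 48.9 and from 20.3 to 39.4 CPM, a fall that turned to a log2 difference of 0.025 with library totals alone.

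Among the alpha genes, the widely expressed Tuba1b (GRCm38, chr15:98931425-98934565, minus strand) and Tuba1c (chr15:99029891-99038110, plus strand) were the most abundant alpha genes in CCl4 livers. Tuba1b ranged from 12.7 to 17.6 CPM in control libraries (median 15.1), from 18.4 to 48.6 in CCl4 (median 30.8) and from 17.9 to 34.8 in CCl4_PTH (median 28.5). Tuba1c ranged from 12.8 to 17.0 CPM (median 15.3), 20.9 to 45.4 (median 33.9) and 19.7 to 43.9 (median 24.1) in the same order. For both genes every CCl4 and every CCl4_PTH library lay above every control library, and the groups given CCl4 overlapped each other. The log2 difference between CCl4 and control was 1.08 ± 0.20 for Tuba1b (SE, n = 6 per group, edgeR adjusted p = 0.000268) and 1.12 ± 0.20 for Tuba1c (adjusted p = 0.000172).

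Tuba1a (chr15:98949837-98953703, minus strand), an isotype best known from developing neurons, was present at lower levels. It ranged from 3.42 to 5.51 CPM in control (median 4.34), 6.89 to 17.5 in CCl4 (median 11.3) and 5.46 to 15.1 in CCl4_PTH (median 9.63). Again every CCl4 library exceeded every control library, and the lowest CCl4_PTH library fell just inside the control range. The difference between CCl4 and control was 1.40 ± 0.24 on the log2 scale (edgeR adjusted p = 0.000121). With the counts of the 3 near-identical genes added together, it was 1.14 for the sum (adjusted p = 0.00012).

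Tuba8 (chr6:121210696-121226854, plus strand), an isotype with a divergent tail known from testis, muscle and brain, was the least abundant member. It ranged from 0.220 to 0.703 CPM in control (median 0.563), from 0.693 to 2.13 in CCl4 (median 1.18) and from 0.803 to 2.72 in CCl4_PTH (median 1.99). The lowest CCl4 library fell within the control range, and all CCl4_PTH libraries were above it. Tuba8 was higher in CCl4 than in control by 1.38 ± 0.34 (log2, edgeR adjusted p = 0.00253). Its 6 control libraries together held 182 counts.

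Tuba4a (chr1:75214228-75219865, minus strand), whose gene lacks the terminal tyrosine codon and which is known as a platelet isotype, was the most abundant alpha gene in control livers, and its fall after CCl4 depended on the scaling. It ranged from 35.7 to 48.9 CPM in control (median 40.0), 20.3 to 39.4 in CCl4 (median 28.2) and 27.1 to 41.9 in CCl4_PTH (median 33.2). Only CCl4 5 reached into the control range, and the other 5 CCl4 libraries lay below every control library. The difference was −0.58 ± 0.15 on the log2 scale (edgeR adjusted p = 0.00328), which became 0.025 (adjusted p = 0.9) when counts were scaled to library totals alone, a scaling that moved the median of all genes from 0.05 to 0.63. Of its 3701 exon bases 1379 are shared with Stk16 on the other strand. Unscaled counts of Stk16 ran from 1591 to 3029 in control and from 1684 to 1953 in CCl4 libraries. Summed over the 6 libraries of each group, they were 13294 in control and 10916 in CCl4. The unscaled sums of Tuba4a were 15856 and 15064, so neither set compares directly with the CPM above. Because the counting is not stated to use strand, reads of these genes cannot be told apart there.

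Of the beta genes, Tubb2a (chr13:34074274-34078007, minus strand) and Tubb2b (chr13:34126748-34130466, minus strand) are neighbours on chromosome 13 and are best known as the beta tubulins of neurons. Tubb2a ranged from 4.48 to 14.3 CPM in control (median 10.5), from 15.3 to 102 in CCl4 (median 63.4) and from 11.9 to 46.4 in CCl4_PTH (median 18.8). Tubb2b ranged from 0.881 to 2.82 CPM (median 2.06), 4.07 to 21.2 (median 13.5) and 2.48 to 8.20 (median 3.86). All CCl4 libraries exceeded all control libraries for both genes, and within CCl4 the libraries CCl4 4, 5 and 7 (88.2 to 102 CPM of Tubb2a) stood above CCl4 1, 2 and 8 (15.3 to 38.6 CPM). The log2 difference between CCl4 and control was 2.66 ± 0.46 for Tubb2a (edgeR adjusted p = 0.000158) and 2.70 ± 0.41 for Tubb2b (adjusted p = 3.46e-05).

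Tubb5 (chr17:35833921-35838306, minus strand), the general beta tubulin of dividing cells, was the most abundant member in CPM after CCl4. It ranged from 28.3 to 38.2 CPM in control (median 33.9), 48.5 to 109 in CCl4 (median 70.7) and 45.6 to 96.2 in CCl4_PTH (median 54.1). Both groups given CCl4 lay wholly above control, and they overlapped each other. Tubb5 was higher in CCl4 than in control by 1.11 ± 0.19 (log2, edgeR adjusted p = 0.00011).

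Tubb4b (chr2:25222160-25224702, minus strand), a widely expressed isotype also used in cilia, changed least among the beta genes. It ranged from 25.2 to 33.9 CPM in control (median 29.9), 33.7 to 59.7 in CCl4 (median 46.3) and 23.5 to 53.1 in CCl4_PTH (median 33.0). The lowest CCl4 library fell within the control range, and the CCl4_PTH libraries spread across both. The difference between CCl4 and control was 0.67 ± 0.17 (log2, edgeR adjusted p = 0.00322). Tubb6, on chromosome 18, is an isotype whose overexpression is known to destabilise microtubules. It ranged from 2.72 to 4.07 CPM in control (median 3.60), 8.33 to 23.6 in CCl4 (median 13.2) and 5.10 to 11.5 in CCl4_PTH (median 5.98). The control libraries lay below all others, and the log2 difference between CCl4 and control was 2.07 ± 0.26 (edgeR adjusted p = 4.36e-06).

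PTH was compared with CCl4 alone in the same fit, with the CCl4 libraries shared by both comparisons. Tubb2a, Tubb2b and Tubb6 were lower in CCl4_PTH than in CCl4 livers, by 2.78-fold, 2.86-fold and 2.12-fold, and no isotype was higher. Among all genes 12.1% were called, 7.10% higher and 4.95% lower. The 2 groups overlapped for all 10 isotypes, where 4.07% of all genes did not overlap (2.20% wholly higher and 1.87% wholly lower). The median log2 difference was −0.28 for the isotypes and −0.03 for all genes.

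**Figure D2:**
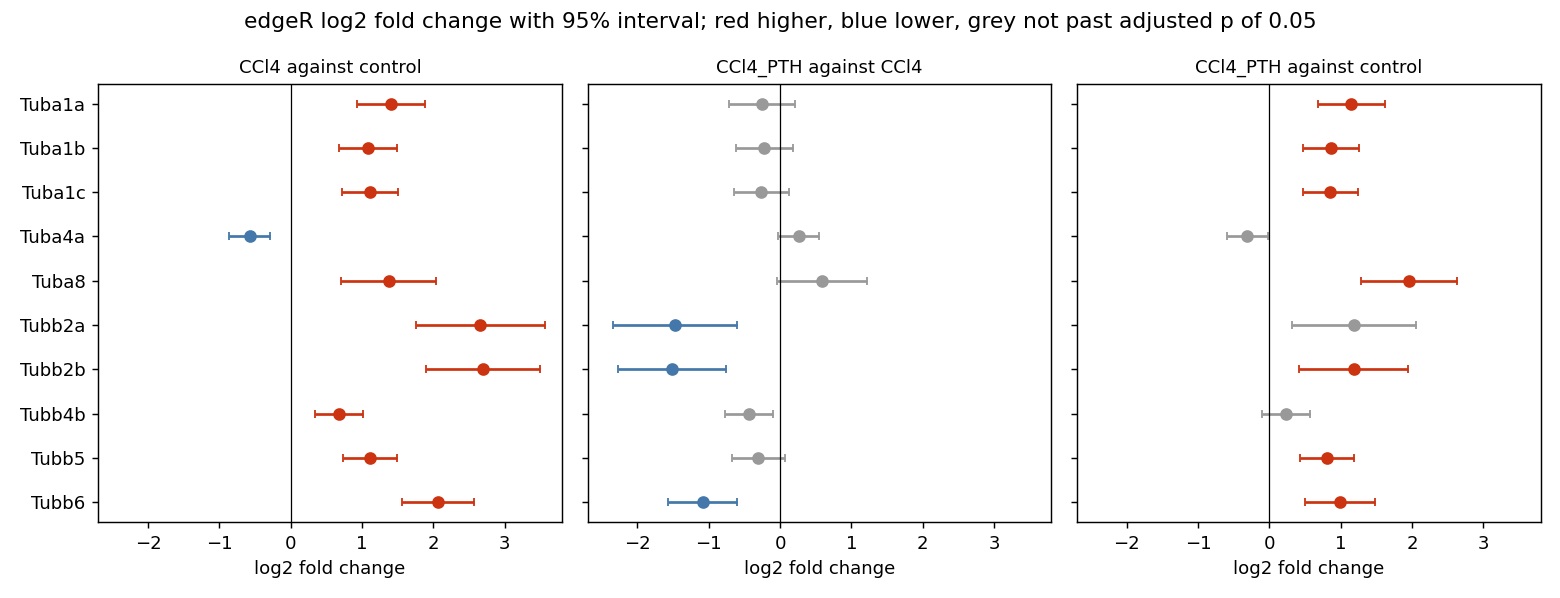
Log2 fold change of each isotype (x axis) in the 3 comparisons, from the edgeR fit over 18 libraries, with bars of the 95% interval. Red and blue points passed an adjusted p of 0.05 as higher or lower and grey points did not. Calls run from 9 higher and 1 lower in CCl4 against control (Tuba4a, not lower with library totals alone) to 3 lower in CCl4_PTH against CCl4 and 7 higher in CCl4_PTH against control.

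Tubb2b was lower by 1.51 ± 0.38 on the log2 scale (4.61 against 13.2 CPM, SE, n = 6 per group, edgeR adjusted p = 0.0168). Tubb6 was lower by 1.08 ± 0.25 (6.80 against 14.4 CPM, adjusted p = 0.00963). For Tubb6, 5 of the 6 CCl4_PTH libraries, between 5.10 and 6.58 CPM, lay below every CCl4 library, and CCl4_PTH 1 at 11.5 CPM did not. Both calls held when any single library was left out, with adjusted p up to 0.0488 for Tubb2b and 0.0262 for Tubb6. Tubb2a was lower by 1.47 ± 0.44 (22.5 against 62.5 CPM, adjusted p = 0.0372). That call was lost without CCl4 4, 5 or 7 or without CCl4_PTH 2, 3, 6, 7 or 8, with adjusted p from 0.0619 to 0.104. It was also lost without the low-count filter (adjusted p = 0.0776) and with only the 2 groups in the fit (adjusted p = 0.0699). With the replicate number added to the edgeR fit as a block, Tubb2b, Tubb6 and Tubb2a were not called (adjusted p = 0.343, 0.211 and 0.449).

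The other 7 isotypes did not pass, and their 95% intervals show what the data allow. Tubb4b was nearest, with a log2 difference of −0.44 (interval −0.77 to −0.10, adjusted p = 0.101; called lower with voom, adjusted p = 0.0161, and without CCl4 1, adjusted p = 0.0445), and Tubb5 gave −0.30 (−0.67 to 0.07, adjusted p = 0.323). The intervals of Tuba1a (−0.72 to 0.21), Tuba1b (−0.62 to 0.18) and Tuba1c (−0.65 to 0.13) each took in 0. Tuba4a and Tuba8 had positive estimates, 0.26 (−0.02 to 0.55) and 0.58 (−0.05 to 1.22), and Tuba4a was called higher without CCl4 5 (0.40, adjusted p = 0.0497). The 3 calls were all beta genes and none of the 5 alpha genes was called, a contrast that was not itself tested.

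A single mouse weighed on this comparison. CCl4_PTH 1 was above its group mean for all 10 isotypes, by 0.71 on average on the log2 scale, with a summed level of 354 CPM against 168 to 230 CPM in the other 5 CCl4_PTH libraries. Its 8 neutrophil markers summed to 178 CPM against 12.3 to 21.1 CPM in those libraries, and its 8 cholangiocyte markers to 263 CPM against 68.1 to 118 CPM. The part of these in the tubulin levels was not tested. Without CCl4_PTH 1, 5 isotypes were called lower, with Tubb4b (adjusted p = 0.011) and Tubb5 (adjusted p = 0.045) added to the 3. Leaving out control 1 and control 8 as well, a combination chosen after seeing the data, gave 4 called isotypes.

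Against control, CCl4_PTH livers held higher levels of 7 isotypes and lower levels of none, where 27.7% of all genes were called, 17.4% higher and 10.3% lower. Tuba8 had the highest fold, 3.89 (log2 difference 1.96 ± 0.34, edgeR adjusted p = 0.000383). Tuba1a, Tuba1b, Tuba1c, Tubb5, Tubb6 and Tubb2b were higher by 1.75-fold to 2.27-fold (adjusted p from 0.00185 to 0.0308). Tubb2a, at 22.5 against 9.94 CPM, had a similar difference of 1.18 ± 0.44 and did not pass (adjusted p = 0.0549), although it did with DESeq2 (adjusted p = 0.0152), with library totals alone (adjusted p = 0.00515) and with only the 2 groups in the fit (adjusted p = 0.0244). Tubb4b (0.24 ± 0.17, adjusted p = 0.329) and Tuba4a (−0.31 ± 0.15, adjusted p = 0.123) did not pass either, but Tubb4b was called higher with library totals alone (adjusted p = 0.00473) and Tuba4a lower with voom (adjusted p = 0.0125). The groups did not overlap for Tuba1b, Tuba1c, Tuba8, Tubb5 and Tubb6, 5 of the 10, against 14.5% of all genes (9.79% wholly higher and 4.67% wholly lower). Leaving out 1 library brought Tubb2a to a call without CCl4 1 or CCl4_PTH 7 (adjusted p = 0.0293 and 0.0405) and Tuba4a without CCl4 5 or CCl4_PTH 1 (adjusted p = 0.0499 and 0.0497). The Tubb2b call rested on single libraries: it was lost without control 1, 3, 4 or 5 or CCl4_PTH 1 or 3 (adjusted p from 0.051 to 0.0834), as well as with voom (adjusted p = 0.0974) and without the low-count filter (adjusted p = 0.0518). It was also lost without control 1 and control 8 together (edgeR adjusted p = 0.0721) and with the replicate number as a block (adjusted p = 0.0788). With the counts of Tubb2a and Tubb2b added together, the difference was 1.18 (edgeR adjusted p = 0.0497). The median log2 difference was 0.92 for the isotypes and 0.04 for all genes.

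Levels were set against each other per kilobase of exon, as mean CPM per kb over 6 libraries. In control livers the order was Tubb4b (14.2), Tuba4a (11.2), Tubb5 (10.2), Tuba1b (8.16), Tuba1c (6.64), Tubb2a (6.17), Tuba1a (2.46), Tubb6 (1.41), Tubb2b (0.890) and Tuba8 (0.218). Neighbours in this order overlapped between libraries except Tuba1a with Tubb6 and Tubb2b with Tuba8. In CCl4 livers Tubb2a led with 38.8 CPM per kb, ahead of Tubb4b (22.6), Tubb5 (22.0), Tuba1b (17.3) and Tuba1c (14.4), and Tuba4a (7.52) was sixth. Only Tubb2b and Tuba8 were neighbours without overlap there. In CCl4_PTH livers Tubb5 (17.8), Tubb4b (16.7), Tuba1b (14.8) and Tubb2a (14.0) came first, and every pair of neighbours overlapped.

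The makeup of each pool can be read as the share of a gene in the length-scaled counts of the alpha or the beta genes. Tuba4a made up 39.1% ± 4.56 of the alpha pool in control (SD, n = 6), 16.7% ± 2.62 in CCl4 and 21.8% ± 3.52 in CCl4_PTH. Its share was 33.0% or more in every control library and 28.6% or less in every other. Tuba1a, Tuba1b and Tuba1c had mean shares of 8.59%, 28.4% and 23.1% in control, 13.9%, 37.0% and 31.2% in CCl4, and 12.7%, 35.3% and 28.1% in CCl4_PTH. Tuba8 stayed small, at 0.763%, 1.22% and 2.06% on average.

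In the beta pool, Tubb2a made up 18.4% ± 4.55 in control, 37.2% ± 10.6 in CCl4 and 25.1% ± 4.78 in CCl4_PTH. CCl4 4, 5 and 7 had Tubb2a shares of 44.6% to 47.9%, and CCl4 1, at 20.9%, lay within the control range. Tubb4b held 43.4% ± 2.51 of the control pool, 26.1% ± 6.64 of the CCl4 pool and 31.8% ± 3.25 of the CCl4_PTH pool, so its share was lower in CCl4 although its level was higher. Tubb5 had shares of 31.3%, 24.7% and 34.1%, Tubb6 of 4.34%, 6.33% and 5.36%, and Tubb2b of 2.65%, 5.66% and 3.71%. These shares are a description without a test, and they depend on the exon lengths used.

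**Figure D3:**
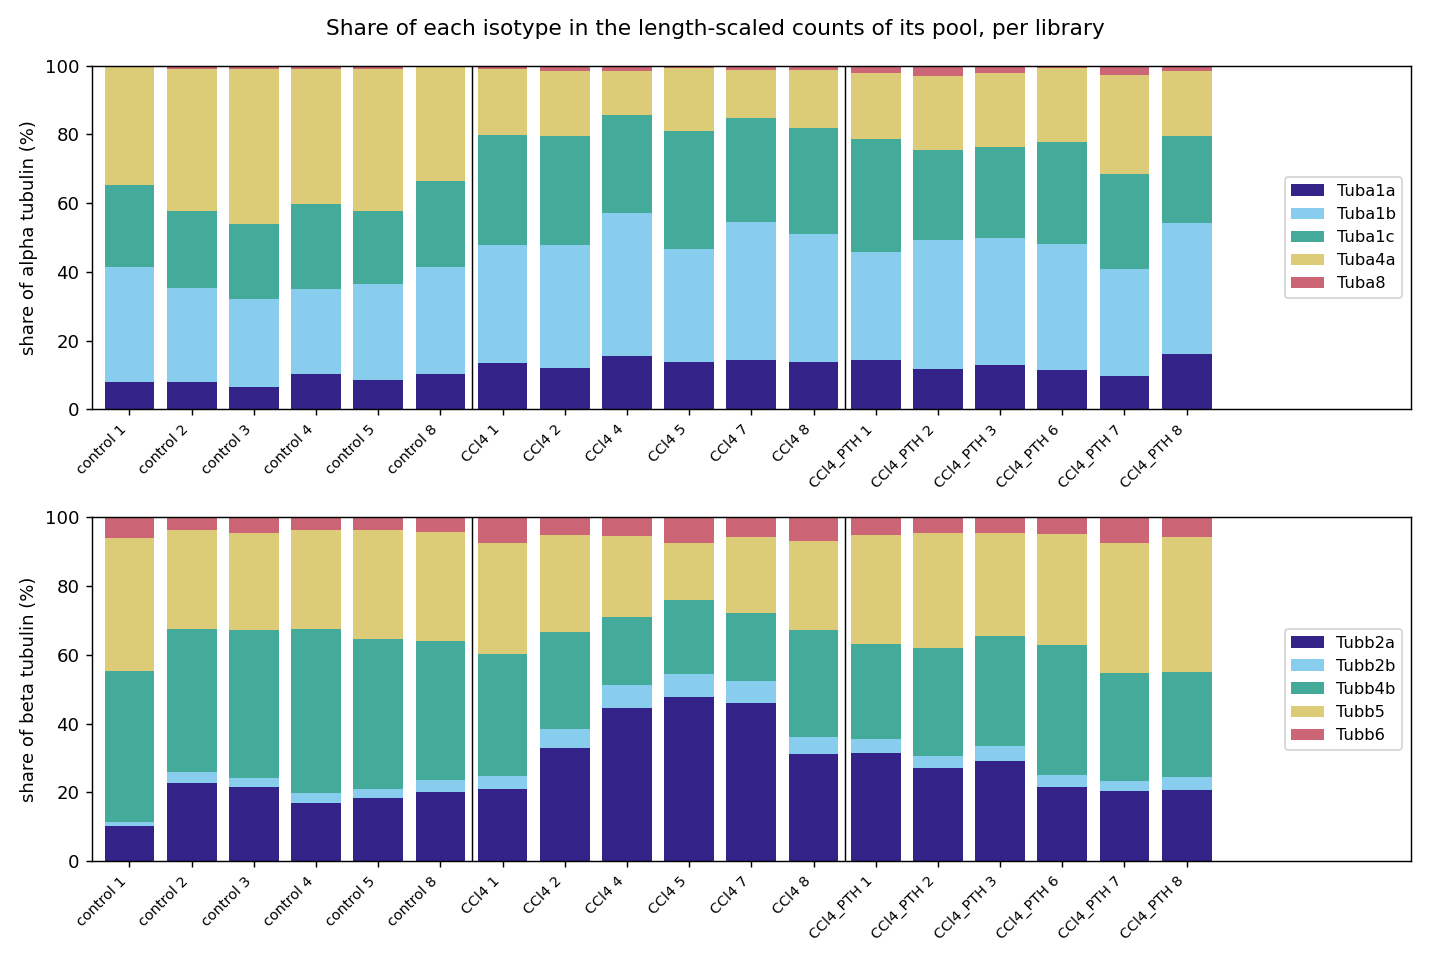
Share of each isotype in the length-scaled counts of the alpha pool (upper) and beta pool (lower), in percent (y axis), for each of 18 libraries (x axis). Tuba4a takes 33.0% to 45.0% of the alpha pool in control and 12.9% to 19.2% in CCl4 libraries, and Tubb2a takes 20.9% to 47.9% of the beta pool in CCl4 libraries.

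Within groups the isotypes varied in the same direction from mouse to mouse. After subtracting each group's mean log2 CPM, the 45 pairs of members had a Pearson r from 0.201 to 0.982 over the 18 libraries, as a description. Tubb2a and Tubb2b had an r of 0.982, Tuba1c and Tubb4b 0.917, and Tuba1a and Tuba1b 0.875. Tuba8 was apart, with r from 0.201 to 0.591 with the other members. CCl4 4 and CCl4 7 were above the CCl4 mean for all 10 isotypes and CCl4 1 and CCl4 8 below it for all 10. Other libraries were mixed: control 1 and control 4 had 4 isotypes above their group mean, control 3 had 6 and CCl4_PTH 6 had 5. The r values include CCl4_PTH 1, which was above its group mean for all 10. These values share library scaling, and for near-identical genes they can share reads.

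**Figure D4:**
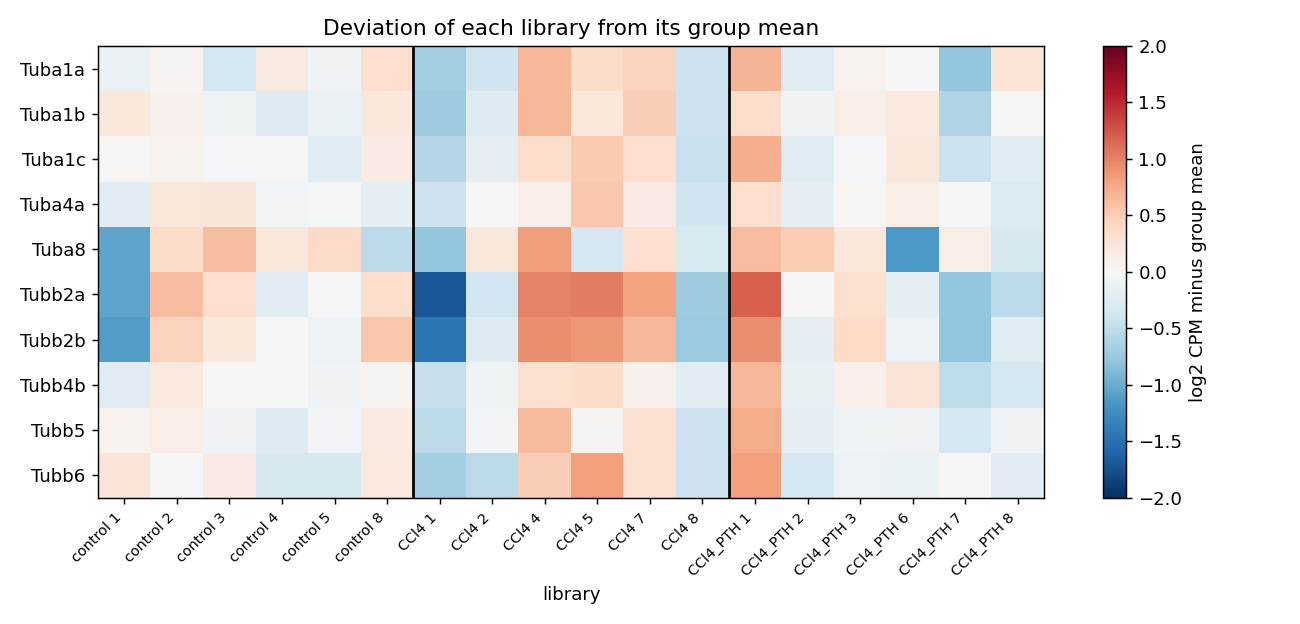
Deviation of each library (x axis) from the mean of its group for each isotype (y axis), as a difference in log2 CPM shown by colour. CCl4_PTH 1 is above its group mean for all 10 isotypes, and CCl4 1 is below its group mean for all 10.

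For Tuba4a and Tubb5, the alpha and the beta member with the highest mean CPM over all 18 libraries, the genes whose levels followed most closely were taken from 12168 protein-coding genes by the same within-group r over 18 libraries, as a description. For Tuba4a they were Psmd8 (0.861) and Psma4 (0.825), which encode proteasome subunits, the HSP90 activator Ahsa1 (0.842), the nuclear transport GTPase Ran (0.835) and the transcriptional inhibitor Id2 (0.827). For Tubb5 they were the adhesion receptor Icam1 (0.942), the glycolytic enzymes Aldoa (0.929) and Pkm (0.922), the signalling adaptor Myd88 (0.925) and the endotoxin receptor Tlr4 (0.917). Without CCl4_PTH 1 the values for these 10 genes ranged from 0.804 to 0.928.

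Promoters of 8 members were matched by symbol in RefSeq (GRCm38.p6), and Tubb2b and Tubb6 were not. The 250 bases before the RefSeq start site are shown for Tubb2a, the matched member with the largest rise, with motif matches in capitals. They lie at chr13:34078009-34078258 on the minus strand and are written 5′ to 3′ along the gene.
Tubb2a: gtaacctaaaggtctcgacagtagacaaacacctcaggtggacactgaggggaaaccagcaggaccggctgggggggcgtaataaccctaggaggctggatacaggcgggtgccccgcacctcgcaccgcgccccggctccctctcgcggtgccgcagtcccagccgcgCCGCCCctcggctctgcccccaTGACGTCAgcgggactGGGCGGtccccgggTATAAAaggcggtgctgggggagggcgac
The motifs searched, on both strands of the 300-base windows that also take in the 50 bases after the start site, were the CCAAT box (CCAAT), the GC box (GGGCGG), the TATA box (TATAAA), the core of the cAMP response element (TGACGT) and the cell cycle homology region (TTTGAA). Tubb2a held TATAAA starting at −29 from the start site, GGGCGG at −81 and −43, and TGACGT on both strands in one overlapping stretch at −59, whereas Tuba4a held GGGCGG at −35 and −23 and no other motif. The RefSeq start sites of Tuba1a, Tuba1b, Tuba4a, Tuba8 and Tubb5 lie inside the gene spans that GENCODE gives. The bases before the start site in these windows therefore take in part of the gene. CCAAT was found in 4 of the 8 member promoters and in 37.4% of 32851 promoters, GGGCGG in 6 and in 35.7%, TATAAA in 2 and in 13.6%, TGACGT in 1 and in 7.5%, and TTTGAA in 1 and in 17.9%. Tubb4b held 5 matches to CCAAT. A match describes letters only.

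The rest of the tubulin system was read from lists chosen by role. Over 9 lists with 132 genes tested, 39 were higher and 30 lower in CCl4 than in control, 10 higher and 7 lower in CCl4_PTH than in CCl4, and 23 higher and 17 lower in CCl4_PTH than in control. The percentages of all genes called in these comparisons were 47.4%, 12.1% and 27.7%. The falls in CCl4 and the rises with PTH depend on the scaling. With library totals alone 84 of the 132 were higher and 4 lower in CCl4 than in control. In CCl4_PTH against CCl4, 0 were then higher and 4 lower, so none of the 10 higher calls held. With the replicate number as a block, 0 of the 132 were called in CCl4_PTH against CCl4.

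Of 10 other tubulin genes 7 were tested, and Tubb3 and Tubb4a were called higher and Tubg1 lower in CCl4 than in control livers. Tubb3, the classical neuronal beta tubulin, ranged from 0 to 0.122 CPM in control and from 0.260 to 0.803 in CCl4 (log2 difference 3.13 ± 0.79, edgeR adjusted p = 0.0029), and Tubb4a from 0 to 0.107 and from 0.0581 to 0.395 CPM (means 0.0540 and 0.220 CPM, adjusted p = 0.018). The 6 control libraries together held 26 counts of Tubb3 and 21 of Tubb4a. Both genes passed the low-count filter through the groups given CCl4, so against control they could only be called higher. Tubg1, the gamma tubulin that caps nucleation complexes, was 10.7 CPM in control, 6.27 in CCl4 and 8.39 in CCl4_PTH on average. It was lower in CCl4 than in control by 0.76 ± 0.12 (adjusted p = 3.54e-05; −0.17, adjusted p = 0.358, with library totals alone) and higher in CCl4_PTH than in CCl4 by 0.42 ± 0.12 (adjusted p = 0.0259). Tubb1 of platelets, Tubd1, Tube1 and Tubg2 did not pass in any comparison, and Tuba3a, Tuba3b and Tubal3 were too low to test.

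Most genes on the folding list were not called. Of 21 folding genes (prefoldin, the CCT chaperonin and the tubulin cofactors) 2 were higher, 5 lower and 14 not called in CCl4 against control. Among all genes 47.4% were called. The median log2 difference of the list was −0.08 (0.51 with library totals alone), so its direction depended on the scaling. Tbcel, which is on this list but promotes tubulin breakdown, was lower by 1.04 ± 0.14 (adjusted p = 8.57e-06) and higher in CCl4_PTH than in CCl4 by 0.57 ± 0.14 (adjusted p = 0.0135). The prefoldin subunit Pfdn2 (−0.58) and the beta tubulin cofactor Tbca (−0.41) were also lower in CCl4, at 0.00 and 0.19 with library totals alone. In the autoregulation list of 4 genes, Ttc5 was slightly higher in CCl4 than in control (5.71 against 4.45 CPM, 0.36 ± 0.14, adjusted p = 0.0341) and Cnot1, of the deadenylase complex, slightly lower (−0.30 ± 0.08, adjusted p = 0.0032; 0.28 with library totals alone). None of these 4 was called in CCl4_PTH against CCl4.

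Among 20 tested enzymes that modify tubulin, 5 were higher and 6 lower in CCl4 than in control (26.3% and 21.2% among all genes tested). The alpha tubulin acetyltransferase Atat1 fell from 10.3 to 5.54 CPM (−0.89 ± 0.11, adjusted p = 3.1e-06) and the deacetylase Hdac6 from 14.7 to 9.06 CPM (−0.69 ± 0.12, adjusted p = 7.79e-05), and with library totals alone neither passed. Atat1 was 5.68 CPM in CCl4_PTH, a log2 difference from CCl4 of 0.04 ± 0.11. The polyglutamylase Ttll5 was lower in CCl4 by 0.45 (0.10 higher with library totals alone) and higher in CCl4_PTH than in CCl4 by 0.37 (adjusted p = 0.0409), the single call of this list there.

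Of 24 stabilisers and plus-end proteins 13 were higher and 2 lower in CCl4 than in control (median 0.54), and 4 were lower and none higher in CCl4_PTH than in CCl4. Among all genes tested 26.3% were higher and 21.2% lower in the first comparison, and 7.10% higher and 4.95% lower in the second. Clip2, a plus-end linker, rose from 2.44 CPM in control to 10.1 in CCl4 (2.05 ± 0.18, adjusted p = 8.25e-08) and was 5.34 CPM in CCl4_PTH, where every library lay below every CCl4 library (−0.91 ± 0.17, adjusted p = 0.0029). The spindle assembly factor Tpx2 was higher in CCl4 by 3.43 ± 0.32 (2.17 against 0.198 CPM in control). The doublecortin-like kinase Dclk1 was higher by 5.68 ± 0.56 (3.74 against 0.0671 CPM), a difference that rests on a control level near 0. Of 10 destabilisers and severing enzymes 4 were higher, among them the spindle depolymerase Kif2c (0.869 against 0.0267 CPM), Fignl1 (0.962 against 0.164 CPM) and stathmin Stmn1 (4.77 against 2.28 CPM), and 3 lower, and none of the 10 was called in CCl4_PTH against CCl4. Kif2c and Fignl1 had 9 and 63 counts over the 6 control libraries. Like Dclk1, they passed the low-count filter through the groups given CCl4, so against control these genes could only be called higher.

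Of 16 nucleation genes 2 were higher and 5 lower in CCl4 than in control (median −0.24, and 0.33 with library totals alone), and 4 were higher in CCl4_PTH than in CCl4. The shares among all genes tested were 26.3% higher and 21.2% lower in CCl4, and 7.10% higher and 4.95% lower in CCl4_PTH against CCl4. In the augmin complex, which branches spindle microtubules, Haus8 rose by 1.61 ± 0.21 and Haus4 fell by 1.09 ± 0.19. Haus4 was higher in CCl4_PTH than in CCl4 by 0.69 ± 0.19 (adjusted p = 0.0237). Mzt2, a gamma tubulin partner, fell by 0.88 ± 0.17 in CCl4. Among 22 cargo motors 9 were higher and 6 lower in CCl4: Kif1b (284 to 151 CPM) and Kif1c (142 to 78.2 CPM) fell, every CCl4 library lying below every control library, and the neuronal motor Kif1a rose from 0.249 to 4.36 CPM. Kif1b and Kif1c were higher in CCl4_PTH than in CCl4 by 0.43 ± 0.12 and 0.32 ± 0.08 (adjusted p = 0.0224 and 0.0173). These calls, and that of Haus4 in this comparison, were lost with library totals alone.

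Markers of cell types also differed between the groups. All 10 cycling cell markers were higher in CCl4 than in control (summed level 3.77 to 5.73 CPM in control, 24.0 to 46.1 in CCl4, 23.9 to 33.8 in CCl4_PTH), as were 9 of 10 macrophage markers (120 to 189, 395 to 929 and 261 to 563 CPM), all 7 neutrophil markers tested (1.78 to 4.17, 14.0 to 95.5 and 12.3 to 178 CPM) and 7 of 8 cholangiocyte markers (22.1 to 36.9, 101 to 186 and 68.1 to 263 CPM). Of the other lists, 7 of 10 stellate and myofibroblast markers, 7 of 8 T and NK cell markers and 6 of 6 B and plasma cell markers were higher. So were 4 of 6 platelet and megakaryocyte markers. Of 8 endothelial markers 5 were higher and 2 lower, and 5 of 8 hepatocyte markers were lower. Of 3 neuron and Schwann cell markers tested 0 were called. Among all genes tested 26.3% were called higher and 21.2% lower in this comparison. The neutrophil genes Ly6g, Mpo and Mmp8 and the platelet gene Gp9 had 0 counts in all control libraries. Any of them that was tested passed the low-count filter through the groups given CCl4, and could only be called higher than control. In CCl4_PTH against CCl4, 3 macrophage markers were lower and 1 higher, 1 cycling marker was lower and 1 endothelial marker was higher. There, 0 of 8 hepatocyte, 0 of 8 cholangiocyte, 0 of 7 neutrophil and 0 of 10 stellate and myofibroblast markers were called. The same held for 0 of 8 T and NK cell, 0 of 6 B and plasma cell and 0 of 6 platelet and megakaryocyte markers. Among all genes 7.10% were called higher and 4.95% lower. Within the CCl4 group, CCl4 4 and CCl4 7, with summed tubulin levels of 444 and 389 CPM, had the highest macrophage (929 and 813 CPM) and cholangiocyte (184 and 186 CPM) sums, and CCl4 4 also had the highest cycling sum (46.1 CPM). CCl4 8, with 216 CPM of tubulin, had the lowest macrophage sum (395 CPM), while CCl4 1, with the lowest tubulin sum (177 CPM), had macrophage and cycling sums of 490 and 40.5 CPM. CCl4 5, with 415 CPM of tubulin and the highest Tubb2a, Tubb6 and Tuba1c of its group, had the lowest cycling sum (24.0 CPM) of that group and a macrophage sum of 396 CPM, next to the lowest. The T and NK cell sum was also highest in CCl4 4 and CCl4 7 (28.2 and 22.5 CPM). By contrast, the stellate and myofibroblast sum was highest in CCl4 8 (738 CPM) and was 532 CPM in CCl4 5. The neutrophil sum was highest in CCl4 2 (95.5 CPM), whose tubulin sum was 259 CPM. Apart from these values, the part of cell makeup in the isotype differences was not tested.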

How the data were processed

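Per the labels' protocols, liver RNA was depleted of ribosomal RNA and sequenced as 150-base pairs. The deposited table gives estimated counts per gene as whole numbers, not scaled to depth. Tools listed in the submitters' processing notes, with no role, were HISAT2 2.2.1, Bowtie2 2.5.1, StringTie 2.1.5, cutadapt 4.2 and FastQC 0.11.9, with the build GRCm38. The counting step, its strand setting and its annotation are not given in the sources used here. Rounding changed 0 values. Genes were annotated with GENCODE M21 (54723 identifiers matched, 29 not). The main fit used edgeR 4.0.16 in R 4.3.3 (TMM, filterByExpr with minimum count 10, robust quasi-likelihood F test, 3 groups, no block), adjusted by Benjamini-Hochberg over 21840 genes, with a threshold of 0.05. SE was taken from the log2 fold change and the F statistic, and 95% intervals from the SE. The fit was run on counts simulated from its own dispersion estimates, for CCl4 against control only, with equal numbers of genes raised and lowered. With changes balanced in this way, that run cannot test the scaling. Members and lists were chosen with earlier results of these data known. All members were named, with up to 3 genes per pathway list by smallest p in CCl4 against control and all other tubulin genes. Alternatives used DESeq2 1.42.0, limma 3.58.1 (voom), library totals alone, no filter, ribosomal RNA loci removed, 2 groups only, a replicate block and each library left out. 2 more, summed near-identical genes and 3 libraries left out together, were chosen after seeing the data. Among 45 within-group pairs, counts differed by more than sampling noise in each (chi-square per gene 51.8 or more). Some sequences are not reported here.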

Additional observations from a re-analysis of the deposited data

Results flagged for a closer look

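Across 63 groups of 6 values (levels and shares of each isotype, and the summed level), the highest or lowest value stood apart in 6, where chance gives about 1 in 20. CCl4_PTH 1 was the highest library of its group for Tubb5, at 96.2 CPM against 45.6 to 54.7 CPM in the other 5, for Tubb6, at 11.5 CPM against 5.10 to 6.58 CPM, and for the summed tubulin level, at 353.9 CPM against 168 to 230 CPM. CCl4_PTH 7 had the highest share of Tuba4a in the alpha pool of its group, 28.6% against 18.9% to 21.4%, and of Tubb6 in the beta pool, 7.48% against 4.56% to 5.56%. Control 1 had the highest share of Tubb5 in the control beta pool, 38.6% against 28.3% to 31.7%.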

How the results depend on the processing

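Each isotype's log2 difference was recomputed under 28 alternatives, which gives 280 values per comparison. In CCl4 against control 279 of them kept direction and call, in CCl4_PTH against CCl4 261, and in CCl4_PTH against control 257. Direction turned only for Tuba4a, with library totals alone: 0.025 in CCl4 and 0.1848 in CCl4_PTH against control. Isotypes called in CCl4_PTH against CCl4 numbered 3, and from 2 to 5 when 1 library was left out. All genes called there (2632) became 1097 with library totals alone and 4167 with voom, and from 1509 to 3854 with 1 library left out. Pathway genes called there (17) became 26 with DESeq2, 26 with voom, 4 with library totals alone and 11 with 2 groups only, and from 9 to 26 with 1 library left out. In CCl4_PTH against control, library totals alone gave 9912 genes in place of 6051 and 76 pathway genes in place of 40. That scaling raised the share of higher calls from 55.3% to 91.4% in CCl4 against control and from 62.8% to 96.4% in CCl4_PTH against control, and lowered it from 58.9% to 43.4% in CCl4_PTH against CCl4. Without length scaling the share of Tuba4a in control was 53.8%. The cause of these shifts was not tested. Same-numbered libraries did not deviate together (correlations from −0.209 to 0.083), so the numbers were not taken as pairs. With the replicate number as a block, calls in CCl4_PTH against CCl4 were 0 isotypes, 84 genes and 0 pathway genes, and in CCl4_PTH against control 6 isotypes, 3343 genes and 15 pathway genes. At 8289 tubulin counts in the shallowest library, depth limits mainly Tuba8 and the other rare tubulins.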

Other observations

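Of 12 motile cilium genes 8 were tested, and their summed level stayed between 1.94 and 4.36 CPM in all libraries. Foxj1, the regulator of motile cilia, was higher in CCl4 than in control (0.541 against 0.0956 CPM, edgeR adjusted p = 0.0195), and the dynein Dnah11 was lower (0.307 against 0.839 CPM, adjusted p = 0.00699). Foxj1 was near 0 in control and passed the low-count filter through the groups given CCl4, so against control it could only be called higher. The processed copy Tubb4b-ps1 had 86 to 146 counts in control, 130 to 289 in CCl4 and 58 to 247 in CCl4_PTH libraries.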
